A study of Mus musculus with 23 samples.

Results

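The genes of the Hedgehog pathway measured here were the ligand Ihh, the cell surface proteins Ptch1, Smo and Hhip, the intracellular regulator Sufu, and the transcription factors Gli1, Gli2 and Gli3. They were chosen by name, and all 8 were found among 17644 genes with a TPM value and, through their gene ID, among 67228 entries of the count table. Gene expression was measured by RNA-Seq of polyA RNA from the tibia and femur of 1 hind limb of each of 23 female mice, from which the epiphyses had been cut and the marrow spun out. The mice were 11 weeks old and carried the strain label C57BL6/N. WT Control mice (n = 5) and KO Control mice (n = 6) had been injected with saline, and WT T1D (n = 6) and KO T1D mice (n = 6) had been injected with streptozotocin, a toxin of pancreatic beta cells, at 100 mg/kg from 8 weeks of age and had had diabetes for 3 weeks. KO stands for the global Sarm1 knockout, which affects each cell type of the animal, so these bones cannot tell the loss of Sarm1 in bone cells from its loss elsewhere. WT mice were, per the study's methods, either littermates or mice bought from a supplier, and the labels do not say which mouse was which. Each library came from 1 mouse.

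Hedgehog ligands are secreted proteins that bind Ptch1 on a receiving cell. Unbound Ptch1 keeps Smo inactive, and when the ligand binds, Smo acts through the primary cilium to release the GLI factors from Sufu, so that Gli2 acts mainly as an activator and less of Gli3 is cut to its repressor form. Gli1, Ptch1 and Hhip are themselves targets of the pathway and are widely used as its readouts. In the growing long bone, Ihh is made mainly by prehypertrophic and early hypertrophic chondrocytes of the growth plate, where it regulates chondrocyte proliferation and maturation and is needed for osteoblasts to form. Gli1 also marks progenitor cells of bone and of its stroma. Whether Hedgehog transcripts differ with diabetes and with the Sarm1 genotype in bone is the question of the comparisons that follow.

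Promoter sequences of 7 of the 8 genes, all but Gli1, were found in RefSeq for GRCm38.p6, each a window of 300 bases from 250 before to 50 after the start. Those of Ihh, Gli2 and Gli3, the members whose fitted log2 fold change with diabetes in WT mice was lowest, are shown with each GC box (GGGCGG, on either strand) in capitals. The Ihh window lay on the minus strand at chr1:74951623-74951922, the Gli2 window on the minus strand at chr1:119053570-119053869, and the Gli3 window on the plus strand at chr13:15463473-15463772.
Ihh: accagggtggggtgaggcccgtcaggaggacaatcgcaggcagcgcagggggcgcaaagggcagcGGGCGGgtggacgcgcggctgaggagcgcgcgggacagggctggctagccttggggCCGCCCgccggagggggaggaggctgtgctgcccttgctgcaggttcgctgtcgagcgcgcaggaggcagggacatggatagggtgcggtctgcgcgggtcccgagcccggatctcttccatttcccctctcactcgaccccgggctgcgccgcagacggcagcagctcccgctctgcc
Gli2: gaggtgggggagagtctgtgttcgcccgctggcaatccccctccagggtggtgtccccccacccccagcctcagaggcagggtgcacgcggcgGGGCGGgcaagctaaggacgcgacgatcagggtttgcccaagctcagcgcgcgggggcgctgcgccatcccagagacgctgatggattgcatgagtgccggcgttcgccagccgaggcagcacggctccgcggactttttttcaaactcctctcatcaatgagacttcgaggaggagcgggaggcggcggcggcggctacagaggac
Gli3: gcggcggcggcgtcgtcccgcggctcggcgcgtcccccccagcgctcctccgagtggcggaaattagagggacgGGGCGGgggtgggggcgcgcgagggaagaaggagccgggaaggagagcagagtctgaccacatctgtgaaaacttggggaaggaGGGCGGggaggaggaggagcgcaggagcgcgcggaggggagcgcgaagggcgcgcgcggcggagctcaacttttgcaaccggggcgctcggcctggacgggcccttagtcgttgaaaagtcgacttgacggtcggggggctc
A GC box was present in 6 of the 7 windows, the exception being Smo, and in 35.7% of 32851 promoter windows of the same length. The 7 windows were rich in GC, from 56.3% in Sufu to 76.3% in Ptch1, whereas the median over all windows was 52.7%. They held from 12 CpG dinucleotides in Sufu to 47 in Ptch1, where the median window had 7. A GLI binding site spelled GACCACCCA, searched on both strands, was in 0.253% of all windows and in none of the 7. Its shorter core ACCACCC, which lies within the longer site, was in 4.61% of all windows and in that of Gli2. The RUNX site TGTGGT was in 16.8% of all windows and in that of Gli3. These are matches of letters in a window, not binding sites.

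In all groups together, the levels of the 8 genes spanned a wide range when compared per transcript length, in TPM. Smo, the signal transducer at the membrane, was highest at a TPM level of 15.01 ± 3.52 (SD, n = 23). Sufu followed at 6.75 ± 1.18 and Ptch1 at 4.55 ± 0.820. This order of the upper members was nearly the same in each animal, since Smo was above Sufu in 23 of 23 mice and Sufu above Ptch1 in 22 of 23. Ptch1 was above Gli2 in 23 of 23 mice. The remaining GLI factors and the ligand lay close together. Gli2 had a TPM level of 1.42 ± 0.523, Gli1 of 0.861 ± 0.485, Gli3 of 0.802 ± 0.324 and Ihh of 0.745 ± 0.628. Gli1 was above Gli3 in 10 of 23 mice and Gli3 above Ihh in 16 of 23, so these neighbours did not differ beyond their spread. Hhip, a decoy receptor that binds Hedgehog ligands, was lowest at a TPM level of 0.0483 ± 0.0627 and was below Ihh in 23 of 23 mice. Hhip had no count in 5 mice, where the 3 counts that a count of 0 allows correspond to at most 0.173 CPM. Such limits cover counting error only.

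**Figure D1:**
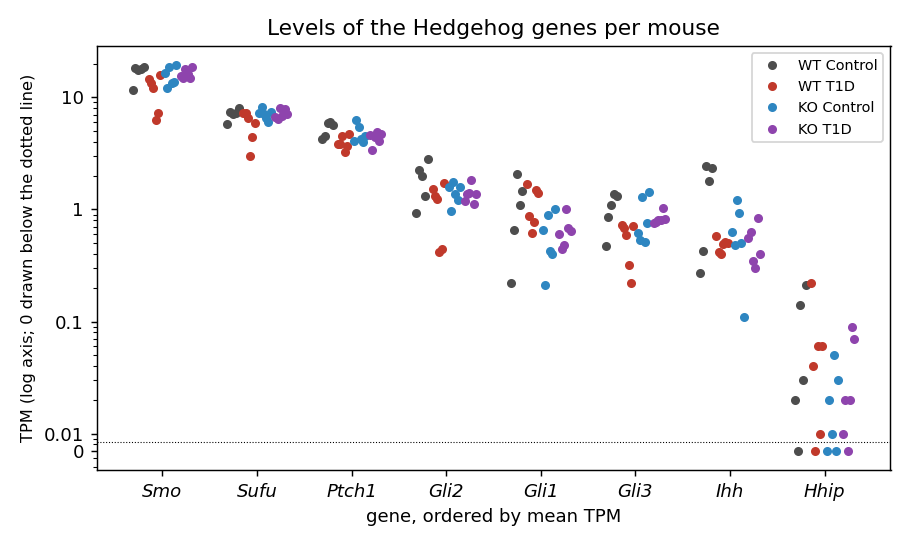
TPM (log axis) of the 8 Hedgehog genes in each of 23 mice, coloured by group, with genes ordered by mean TPM; values of 0 are drawn below the dotted line. Smo, Sufu and Ptch1 formed the upper level and Hhip the lowest, with 5 mice at a count of 0.

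The libraries had 16938101 to 20135592 counts, so depth varied little between mice. Within a gene, values are given as CPM, which is the count scaled to a common library size with TMM factors. Ihh rested on 3 to 61 counts per mouse and Gli1 on 10 to 86, whereas Smo rested on 380 to 940. The bone label was matched by high levels of the osteoblast and osteocyte markers, among which Bglap, Col1a1 and Bglap2 had the highest TPM. No gene of any of the 7 marker lists was at 0 in all mice. Libraries A3905 and A3906 of WT T1D stood apart, with osteoblast and osteocyte marker scores (mean log2(CPM + 0.5)) of 7.25 and 7.11 where the other mice had at least 8.89, and with the highest erythroid scores, 11.1 and 11.2, where the others had at most 10.8. Differences with diabetes in WT mice are therefore also given without them for the genes tested. In bulk RNA, fewer cells of a type and less RNA per cell cannot be told apart. Mouse ID numbers beginning with A17 were carried by 1 WT Control and 3 WT T1D mice and by no KO mouse. IDs of KO mice began with A36 except for A3766, and the other WT mice had A39 IDs except for A3767. ID series and group are therefore partly confounded. Genotype and ID series are nearly wholly so, also among the A36 to A39 mice alone. Sarm1, the targeted gene, was at 1.17 ± 0.403 CPM in WT Control (SD, n = 5) and 0.799 ± 0.503 in KO Control (n = 6), with an edgeR adjusted p of 0.999. It was at 0.687 ± 0.293 CPM in WT T1D and 1.19 ± 0.259 in KO T1D (n = 6 each), with an edgeR adjusted p of 0.281. Sarm1 counts of 5 to 32 per mouse thus did not separate the libraries labelled KO from those labelled WT, and the directions by genotype below rest on the labels. Other genes did differ by label, with a lowest edgeR adjusted p over all genes of 2.01e-15 in Control and 1.23e-16 in T1D mice. By qPCR, the study reported significantly less Sarm1 in knockout than in WT bone.

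Of the 8 genes, 7 passed the filter of 10 counts in 5 mice and went into the quasi-likelihood fit of edgeR with 14364 genes. None of the 7 passed an adjusted p under 0.05 in any comparison, nor did any in DESeq2. In a fit of the A36 to A39 mice alone, 4 members passed in WT T1D against WT Control, where 2205 of 14364 genes did. In that fit 2 members passed in KO T1D against WT T1D, where 1538 of 14364 genes did. Their values are given with each gene below. For WT T1D against WT Control, 0 of 7 members were called where 2.33% of all genes tested were, and 2 of 7 had an unadjusted p under 0.05, both with lower values in WT T1D, where 22.2% of all genes had one. For KO T1D against KO Control, 0 of 7 were called (0% of all genes) and 0 of 7 had an unadjusted p under 0.05 (3.15%). For KO Control against WT Control, 0 of 7 were called (0.0278%) and 0 of 7 had an unadjusted p under 0.05 (4.8%). For KO T1D against WT T1D, 0 of 7 were called (0.0905%) and 2 of 7 had an unadjusted p under 0.05 (17.1%), with Gli1 lower and Smo higher in KO T1D. For the difference between the diabetes effects of the genotypes, the interaction, 0 of 7 were called (0%) and 0 of 7 had an unadjusted p under 0.05 (10.2%). With 7 genes tested, 2 genes are near the shares of all genes at an unadjusted p under 0.05 in WT T1D and in KO T1D against WT T1D, and these counts are no result about the members. With diabetes in WT mice, 6 of the 7 fitted log2 fold changes were below 0, with a median of -0.30. Of all 14364 genes, 7459 were below 0, with a median of -0.011. Without A3905 and A3906, 5 of 7 members were below 0, with a median of -0.087, where 7495 of 14364 genes were below 0. In KO mice, 3 of 7 members were below 0 and their median was 0.027, where 7269 of 14364 genes were below 0.

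**Figure D2:**
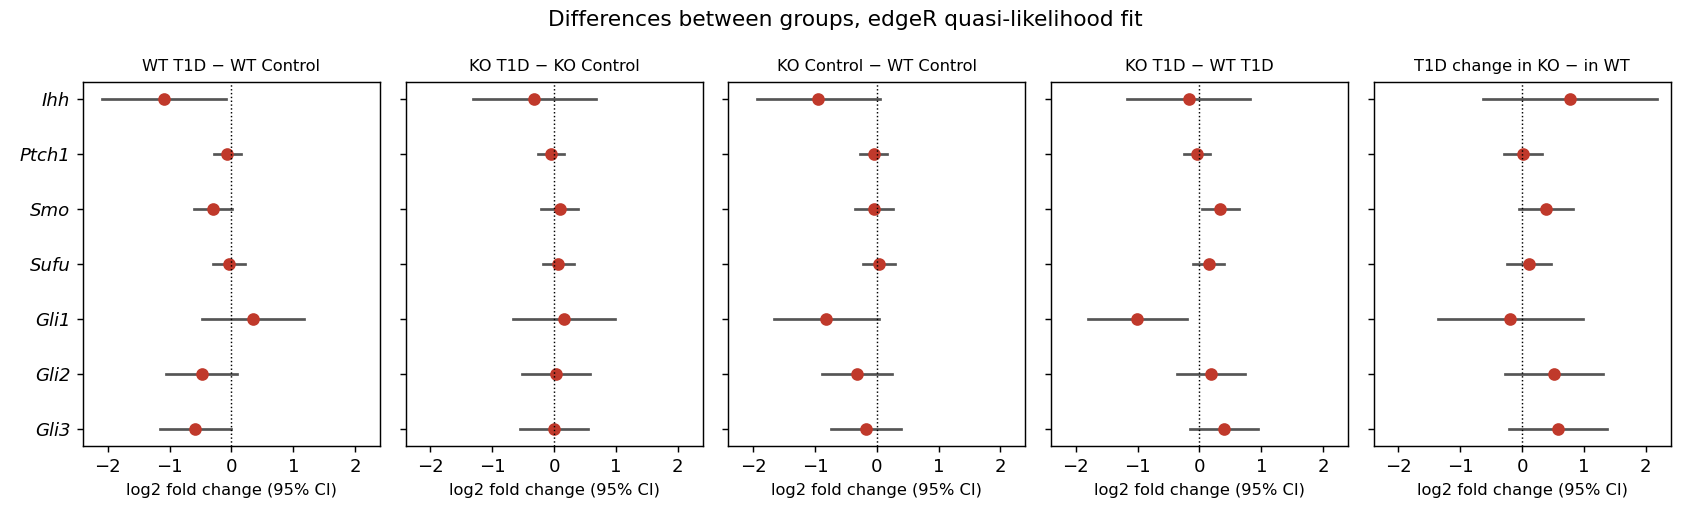
Fitted log2 fold changes (x axis, points) with 95% confidence intervals (lines) of the 7 tested Hedgehog genes (y axis) in 4 comparisons of groups and for the difference between the diabetes effects of KO and WT. Intervals exclude 0 without adjustment for Ihh and Gli3 in WT T1D and for Gli1 and Smo in KO T1D against WT T1D, and 0 of 7 genes passed an adjusted p under 0.05.

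Ihh (gene ID 16147, chr1:74945315-74951672, GRCm38.p6), the only member that encodes a ligand, had the lowest fitted log2 fold change with diabetes in WT mice. Among WT Control mice it was at 0.438 CPM in A1757, 0.548 in A3767, 3.11 in A3903, 2.59 in A3904 and 3.36 in A3907. In WT T1D the lowest, median and highest values were 0.778, 0.915 and 1.16 CPM. The WT Control mice thus fell into 2 low and 3 high values, and 6 of 6 WT T1D mice lay in the gap between them, so that the groups overlapped in range while each of the 6 had less Ihh than the WT Control mean of 2.01 ± 1.41 CPM (SD, n = 5). This split followed the ID series, since the 3 high mice carried A39 IDs and the 2 low ones did not. The WT T1D mice with A39 IDs, A3905, A3906 and A3909, lay in the gap. WT T1D against WT Control gave a log2 fold change of -1.09 (SE 0.484, 95% CI -2.09 to -0.088), with an edgeR p of 0.0343 and an adjusted p of 0.187. Without A3905 and A3906 it was -1.23 (SE 0.563, adjusted p = 0.430), so the value was as large without the libraries that stood apart. Among the A36 to A39 mice the Ihh value was -1.24 (SE 0.595, edgeR adjusted p = 0.156). In KO Control mice Ihh was at 0.165, 0.955 and 1.82 CPM (lowest, median and highest) and in KO T1D mice at 0.540, 0.681 and 1.47. These ranges overlapped. The log2 fold change with diabetes in KO was -0.32 (95% CI -1.31 to 0.67, edgeR adjusted p = 1.00) and the interaction was 0.77 (95% CI -0.64 to 2.18, adjusted p = 0.692). KO Control mice were below the WT Control mean in 6 of 6 cases, at a log2 fold change of -0.94 (95% CI -1.94 to 0.051, edgeR adjusted p = 0.999).

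Cartilage markers and Ihh were high in the same mice in 3 of the 4 groups. The cartilage score, over 14 tested genes of which Col11a1, Col11a2 and Col2a1 had the highest TPM, averaged 4.43 over the WT Control mice (range 2.83 to 5.56) and 2.72 over the WT T1D mice (range 1.56 to 4.46). In KO Control it averaged 3.21 (range 2.48 to 4.64), and in KO T1D it averaged 3.02 (range 2.36 to 4.38). The summed level of all 18 cartilage markers lay between 3124 and 6033 CPM for WT Control mice, between 315 and 3792 for WT T1D, between 2599 and 4464 for KO Control and between 3087 and 5213 for KO T1D. In WT T1D against WT Control, 14 of 14 tested cartilage markers had a fitted log2 fold change below 0, with a median of -2.02. Of these, 8 had an unadjusted edgeR p under 0.05, where 22.2% of all genes did, and none had an adjusted p under 0.05. The 3 WT Control mice with high Ihh had the highest cartilage scores of that group, 4.85 to 5.56. In KO Control the mice with the highest Ihh, A3670 and A3672, likewise had the highest scores, 4.64 and 3.84, and in KO T1D the mouse with the highest Ihh, A3675, had the highest score, 4.38. WT T1D did not follow this order, since A3909 had the highest score, 4.46, and the lowest Ihh, 0.778 CPM. With the cartilage score in the edgeR fit, the log2 fold change of Ihh with diabetes in WT was 0.0085 (SE 0.510, adjusted p = 0.997). The group means of the score themselves differed, so this fit cannot tell cartilage content from diabetes. In it 0 of 14364 genes passed with diabetes in WT, with a lowest edgeR adjusted p of 0.238. What part cartilage content had in the Ihh values was not tested.

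**Figure D3:**
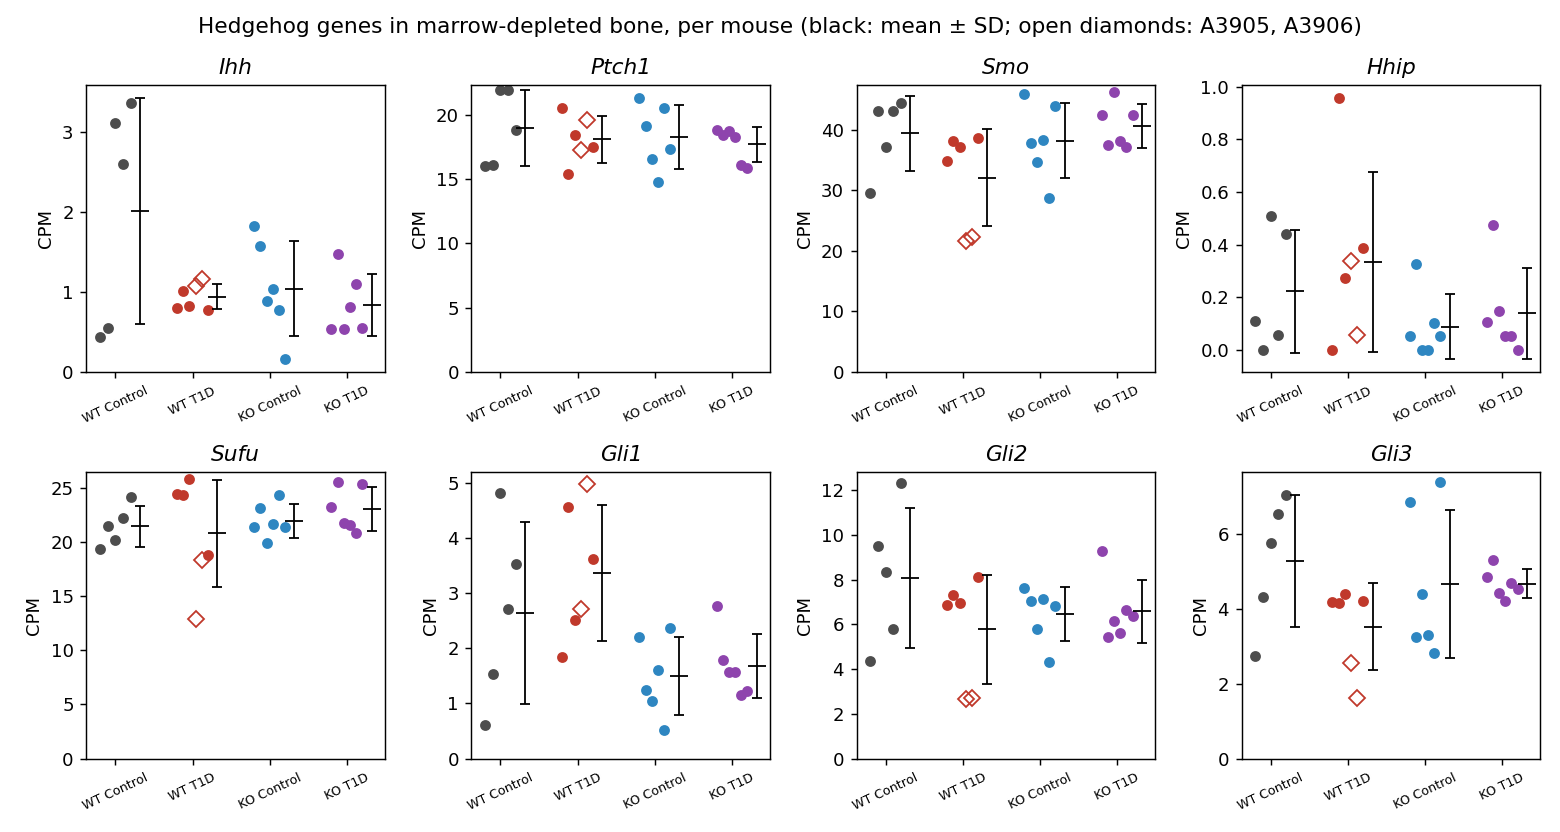
CPM of each of the 8 Hedgehog genes (y axes start at 0 or lower) in each mouse of the 4 groups, with mean ± SD in black to the right of the points and the WT T1D mice A3905 and A3906 as open diamonds. Ihh in WT Control splits into 2 low and 3 high mice with the WT T1D mice between them, and A3905 and A3906 are the lowest WT T1D mice for Smo, Sufu, Gli2 and Gli3.

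Ptch1 (gene ID 19206, chr13:63508328-63573460), the receptor and a target of the pathway, was the steadiest member with a coefficient of variation of 11.4% over the 23 mice. It was at 16.0 CPM in A1757, 16.1 in A3767, 22.0 in A3903, 21.9 in A3904 and 18.8 in A3907 among WT Control mice. WT T1D mice ranged from 15.4 to 20.5 CPM with a median of 18.0, KO Control mice from 14.8 to 21.3 with a median of 18.3, and KO T1D mice from 15.9 to 18.8 with a median of 18.4. The 4 groups overlapped. The log2 fold change with diabetes was -0.065 in WT (95% CI -0.28 to 0.15, edgeR adjusted p = 0.763; -0.080 without A3905 and A3906, adjusted p = 0.860) and -0.047 in KO (95% CI -0.26 to 0.16, adjusted p = 1.00). By genotype it was -0.051 in Control (95% CI -0.27 to 0.17, adjusted p = 0.999) and -0.033 in T1D mice (95% CI -0.24 to 0.18, adjusted p = 0.897).

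Smo (gene ID 319757, chr6:29735497-29761366), the membrane protein that passes the signal on, was at 29.5 CPM in A1757, 43.0 in A3767, 37.1 in A3903, 43.0 in A3904 and 44.3 in A3907. In WT T1D the lowest, median and highest values were 21.5, 35.97 and 38.6 CPM. The lowest values were those of A3905 and A3906, which were below each WT Control mouse, while the other 4 WT T1D mice lay within the WT Control range. The log2 fold change with diabetes in WT was -0.30 (SE 0.151, 95% CI -0.61 to 0.015), with an edgeR adjusted p of 0.249. Without A3905 and A3906 it was -0.087 (SE 0.122, adjusted p = 0.845). Among the A36 to A39 mice, where these are 2 of the 3 WT T1D mice, it was -0.60 (SE 0.173, adjusted p = 0.0285), and with the erythroid score in the fit it was 0.11 (adjusted p = 0.999). KO Control mice ranged from 28.6 to 45.8 CPM with a median of 38.0 and KO T1D mice from 37.1 to 46.1 with a median of 40.2. Diabetes in KO gave 0.089 (95% CI -0.21 to 0.39, edgeR adjusted p = 1.00). Between the diabetic groups, KO T1D was above the WT T1D mean in 6 of 6 mice, at 0.34 (SE 0.144, 95% CI 0.043 to 0.64), with an edgeR p of 0.0269 and an adjusted p of 0.243, at 0.13 (SE 0.117, adjusted p = 0.855) without A3905 and A3906, and at 0.55 (SE 0.162, adjusted p = 0.0366) among the A36 to A39 mice. The interaction was 0.39 (95% CI -0.044 to 0.82, adjusted p = 0.516).

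Hhip (gene ID 15245, chr8:79965850-80058060), the decoy receptor, was read 0 to 17 times per mouse and did not pass the filter. In WT Control it was at 0.110 CPM in A1757, 0 in A3767, 0.509 in A3903, 0.0564 in A3904 and 0.441 in A3907. WT T1D mice ranged from 0 to 0.957 CPM with a median of 0.306, KO Control mice from 0 to 0.326 with a median of 0.0544, and KO T1D mice from 0 to 0.474 with a median of 0.0814. Each group had at least 1 mouse without a count, and the groups overlapped. In a fit of 18002 genes without the filter, the log2 fold change was 0.58 with diabetes in WT (95% CI -1.35 to 2.51, edgeR adjusted p = 0.775) and -1.22 for KO against WT in T1D mice (95% CI -3.11 to 0.67, adjusted p = 0.518). A difference of Hhip was not detectable at this depth.

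Sufu (gene ID 24069, chr19:46396896-46488804), which holds GLI factors back in the cytoplasm, was at 19.3 CPM in A1757, 21.4 in A3767, 20.2 in A3903, 22.3 in A3904 and 24.2 in A3907. In WT T1D it ranged from 12.9 to 25.9 CPM with a median of 21.6. WT T1D mice were spread on both sides of WT Control, 3 below its lowest and 3 above its highest mouse. The ones below were A3905, A3906 and A3909, and the ones above carried A17 IDs. Diabetes in WT gave a log2 fold change of -0.046 (95% CI -0.31 to 0.21, edgeR adjusted p = 0.869), and it was 0.12 (adjusted p = 0.697) without A3905 and A3906. Among the A36 to A39 mice, which leave out the 3 high ones, it was -0.39 (SE 0.122, edgeR adjusted p = 0.0395), so the sign and the call of Sufu depended on which mice were in the fit. KO Control mice ranged from 19.9 to 24.3 CPM with a median of 21.5 and KO T1D mice from 20.8 to 25.5 with a median of 22.5, and their ranges overlapped. Diabetes in KO gave 0.068 (95% CI -0.18 to 0.31, adjusted p = 1.00), and KO against WT gave 0.032 in Control and 0.15 in T1D mice (edgeR adjusted p = 0.999 and 0.532). The latter was -0.023 without A3905 and A3906 and 0.45 (SE 0.114, adjusted p = 0.0213) among the A36 to A39 mice.

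Among the GLI factors, Gli1 (gene ID 14632, chr10:127329882-127341579), a target and amplifier of the pathway, had lower mean levels in both groups labelled KO, 1.50 ± 0.707 CPM in KO Control and 1.67 ± 0.583 in KO T1D (SD, n = 6 each), than in WT Control and in WT T1D, where it was at 3.37 ± 1.23 CPM (n = 6). It was at 0.602 CPM in A1757, 1.54 in A3767, 4.80 in A3903, 2.71 in A3904 and 3.53 in A3907 among WT Control mice. WT T1D mice had 1.84, 3.17 and 4.97 CPM as lowest, median and highest values, KO Control mice 0.513, 1.42 and 2.37, and KO T1D mice 1.15, 1.57 and 2.76. Of the KO T1D mice, 5 of 6 were below each WT T1D mouse, and of the KO Control mice, 6 of 6 were below the WT Control mean of 2.63 ± 1.65 CPM (SD, n = 5). The log2 fold change of KO against WT was -1.005 in T1D mice (SE 0.389, 95% CI -1.81 to -0.20), with an edgeR p of 0.0165 and an adjusted p of 0.213. It was -0.90 (SE 0.428, adjusted p = 0.767) without A3905 and A3906, and -1.18 (SE 0.389, adjusted p = 0.0560) among the A36 to A39 mice. In Control mice it was -0.81 (SE 0.409, 95% CI -1.66 to 0.033, edgeR adjusted p = 0.999). These comparisons share no mice, and both had Gli1 lower in KO without passing the adjusted threshold. The WT Control mice above the KO Control range, A3903, A3904 and A3907, carried A39 IDs, as no KO mouse did. A1757 and A3767 lay within the KO Control range, so genotype and ID series cannot be told apart here. With diabetes Gli1 had a log2 fold change of 0.35 in WT (95% CI -0.47 to 1.18, edgeR adjusted p = 0.642), of 0.25 in WT without A3905 and A3906 (adjusted p = 0.892) and of 0.16 in KO (95% CI -0.66 to 0.99, adjusted p = 1.00). Among the A36 to A39 mice the WT value was 0.28 (edgeR adjusted p = 0.694). Gli1 thus did not share the direction of Ihh in WT T1D. Leaving out A3903 took the Control difference to -0.48, and leaving out A1757 took it to -1.07, with adjusted p values of at least 0.819 over the 23 fits that each left out 1 mouse.

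Gli2 (gene ID 14633, chr1:118834061-119054405), the main activator, was at 4.38 CPM in A1757, 9.49 in A3767, 8.36 in A3903, 5.81 in A3904 and 12.3 in A3907. Its WT T1D values were 2.66, 6.93 and 8.11 CPM as lowest, median and highest. As for Smo, A3905 and A3906, at 2.66 and 2.72 CPM, were below each WT Control mouse and the other 4 mice were not. The fitted difference with diabetes in WT was -0.48 (SE 0.276, 95% CI -1.05 to 0.089), with an edgeR adjusted p of 0.310, and -0.15 (SE 0.228, adjusted p = 0.868) without them. Among the A36 to A39 mice, which keep both, it was -0.99 (SE 0.332, edgeR adjusted p = 0.0497). KO Control mice ranged from 4.31 to 7.62 CPM with a median of 6.95 and KO T1D mice from 5.42 to 9.30 with a median of 6.25. Diabetes in KO gave 0.027 (95% CI -0.52 to 0.57, adjusted p = 1.00), the interaction was 0.51 (95% CI -0.28 to 1.30, adjusted p = 0.631), and KO against WT gave -0.32 in Control and 0.19 in T1D mice (edgeR adjusted p = 0.999 and 0.753).

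Gli3 (gene ID 14634, chr13:15463723-15730026), the main repressor, was at 2.74 CPM in A1757, 4.33 in A3767, 5.76 in A3903, 6.54 in A3904 and 7.05 in A3907. WT T1D mice had 1.62, 4.18 and 4.41 CPM as lowest, median and highest values, with A3905 and A3906 again the lowest and below each WT Control mouse. Each of the 6 had less than the WT Control mean of 5.29 ± 1.75 CPM (SD, n = 5). Its log2 fold change with diabetes in WT was -0.58 (SE 0.277, 95% CI -1.16 to -0.0090), with an edgeR p of 0.0468 and an adjusted p of 0.217, and -0.32 (SE 0.267, adjusted p = 0.715) without A3905 and A3906. Among the A36 to A39 mice Gli3 was at -1.07 (SE 0.334, edgeR adjusted p = 0.0381). KO Control mice ranged from 2.82 to 7.38 CPM with a median of 3.86, and KO T1D mice were narrow, from 4.203 to 5.32 with a median of 4.61. Diabetes in KO gave -0.00086 (95% CI -0.54 to 0.54, adjusted p = 1.00) and the interaction was 0.58 (95% CI -0.21 to 1.37, adjusted p = 0.586). KO T1D mice were above the WT T1D mean in 6 of 6 cases, at 0.40 (95% CI -0.15 to 0.95, edgeR adjusted p = 0.437), and at 0.14 (adjusted p = 0.939) without A3905 and A3906. KO against WT in Control mice gave -0.18 (adjusted p = 0.999).

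Smo, Sufu, Gli2 and Gli3 were lowest in the libraries where osteoblast and osteocyte markers were lowest. The score of these 12 markers averaged 9.64 over WT Control mice (range 9.14 to 9.94), 8.55 over WT T1D mice (range 7.11 to 9.52), 9.51 over KO Control mice (range 9.26 to 9.87) and 9.56 over KO T1D mice (range 9.41 to 9.84). Their summed level reached down to 5050 CPM in WT T1D where the lowest of the other groups was 53248. In WT T1D, 11 of 12 of these markers had fitted log2 fold changes below 0 and 2 passed an adjusted p under 0.05. Of the erythroid markers, led in TPM by Hba-a1, Hba-a2 and Hbb-bs, 13 of 13 had values above 0 and 7 passed. The share of all genes that passed was 2.33%. Without A3905 and A3906, 0 of 14364 genes passed in WT T1D, so none of these markers did. The erythroid score lay between 9.95 and 10.5 for WT Control and between 10.5 and 11.2 for WT T1D. With the erythroid score in the edgeR fit, the log2 fold change with diabetes in WT was 0.11 for Smo, 0.12 for Sufu, 0.11 for Gli2 and 0.19 for Gli3 (adjusted p = 0.999 for each). The erythroid scores of WT Control and WT T1D barely overlapped. In that edgeR fit 0 of 14364 genes passed, with a lowest adjusted p of 0.999, so it cannot tell erythroid content from diabetes. The osteoblast and osteocyte score was not put in a fit, and the part of these cells in the values was not tested. Markers of the other lists varied as well. The summed level of the 10 skeletal muscle markers, led by Acta1, Tnnt3 and Ckm, lay between 1574 and 10122 CPM for WT Control mice, between 2544 and 6567 for WT T1D, between 816 and 9050 for KO Control and between 226 and 5340 for KO T1D. Neutrophil markers (Ngp, S100a8, S100a9 highest) had scores of 11.2 to 12.04 in WT mice and 11.2 to 11.8 in KO mice, and endothelial markers (Pecam1, Emcn, Cdh5 highest) had scores of 5.08 to 5.75 and 5.04 to 5.64. Marrow stromal and adipocyte markers, with Cxcl12, Fabp4 and Adipoq highest, averaged a score of 5.56 for WT Control mice, 6.10 for WT T1D, 5.31 for KO Control and 5.51 for KO T1D.

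**Figure D4:**
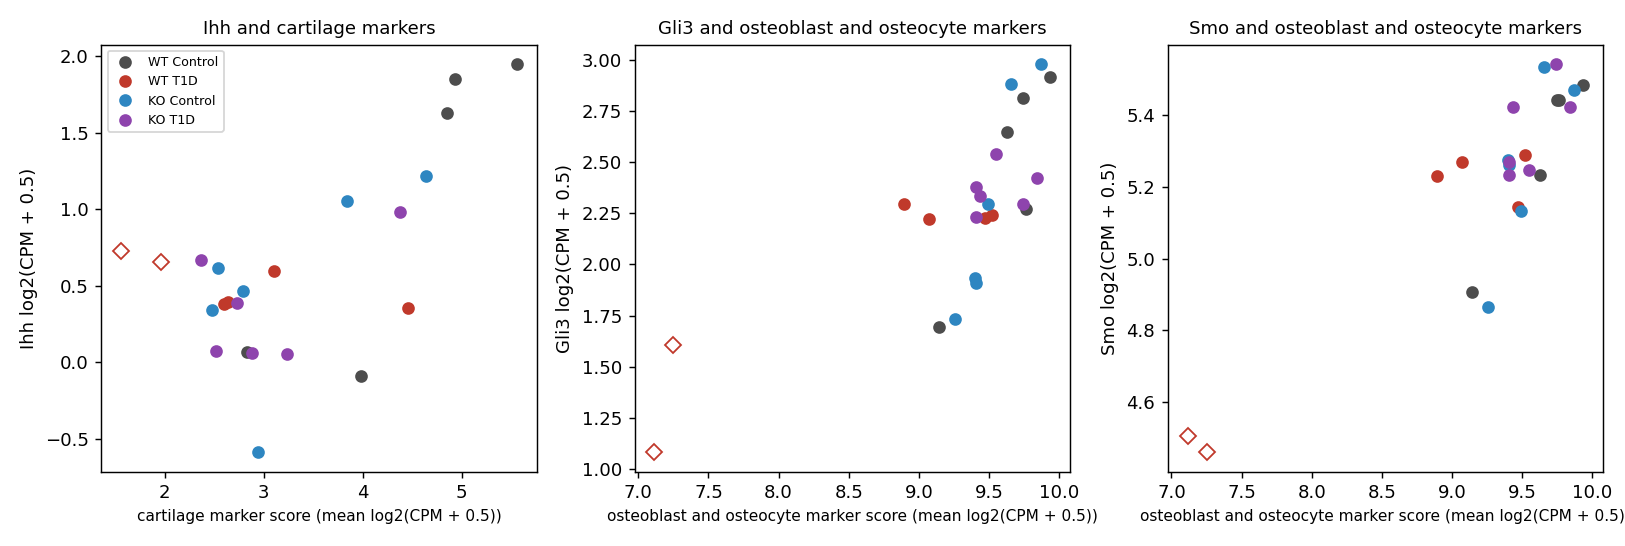
log2(CPM + 0.5) of Ihh against the cartilage marker score and of Gli3 and Smo against the osteoblast and osteocyte marker score, 1 point per mouse, coloured by group, with A3905 and A3906 as open diamonds. The 3 WT Control mice with cartilage scores of 4.85 to 5.56 have the highest Ihh, and A3905 and A3906, with osteoblast scores of 7.25 and 7.11, have the lowest Smo and the lowest WT T1D values of Gli3.

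Relations among the members across the 23 mice were tested for 10 pairs, on log2(CPM + 0.5), with two-sided permutation tests of 100000 resamples. No pair passed an adjusted p under 0.05. Ihh and its receptor and target Ptch1 had a Pearson r of 0.51 (p = 0.0121, adjusted p = 0.0606) and a Spearman rho of 0.40 (p = 0.0579, adjusted p = 0.267). Without A3907 and A3903, the mice farthest from the median of Ihh, r was 0.45 (permutation p = 0.0424, adjusted p = 0.212). Among the A36 to A39 mice it was 0.55 (n = 19, permutation p = 0.0136, adjusted p = 0.120), and with group means subtracted 0.49 (permutation p = 0.0181, adjusted p = 0.101). Gli1 and Hhip, both pathway targets, had an r of 0.52 (permutation p = 0.0105, adjusted p = 0.0606) and a rho of 0.52 (p = 0.0128, adjusted p = 0.128). Without A3906 and A3680 their r was 0.65 (permutation p = 0.00138, adjusted p = 0.0138), among the A36 to A39 mice 0.44 (adjusted p = 0.197) and with group means subtracted 0.38 (adjusted p = 0.178), while on log2(TPM + 1) it was 0.62 (adjusted p = 0.0152). This relation passed the threshold in the set without 2 mice and on log2(TPM + 1), and not in the other 3 settings. Ihh and Gli1 had an r of 0.42 (permutation p = 0.0484, adjusted p = 0.146) and a rho of 0.37 (p = 0.0802, adjusted p = 0.267). Ihh and Hhip had an r of 0.40 (permutation p = 0.0585, adjusted p = 0.146) and a rho of 0.30 (p = 0.164, adjusted p = 0.329). Gli1 and Ptch1, both used as readouts of the pathway, had an r of 0.26 and a rho of 0.32 (adjusted p = 0.394 and 0.327). For Ihh with Smo, Sufu, Gli2 and Gli3 and for Ptch1 with Hhip, r lay between 0.026 and 0.26, with adjusted p values of at least 0.394.

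The genes whose values were most like those of each member across the 23 mice were found among 13307 tested genes with a mean of at least 1 CPM, by Pearson r of log2(CPM + 0.5). They are given as a description, and the points share depth and cell content. For Ihh they were Cnmd (r = 0.74), Col9a2 (0.74) and Snorc (0.72), which are all on the cartilage list. Those of Smo were Fkbp10, Gpc1 and Pcolce (0.94 each), those of Gli2 were Wwtr1 (0.90), Arhgef19 (0.90) and Fkbp9 (0.89), and those of Gli3 were Rtl8b (0.88), Cdh11 (0.88) and Adgra3 (0.87). Fkbp10 encodes a collagen chaperone, Pcolce an enhancer of procollagen processing and Cdh11 a cadherin of osteoblasts. Sufu was most like Rnf122 (0.82), Rasa3 (0.82) and Eml2 (0.81). Gli1 was most like Tns2 (0.82), Mfge8 (0.80) and Ctgf (0.78). Ptch1 had the lowest values of likeness, with Ddx59 (0.67), Thumpd2 (0.67) and Flt4 (0.65). Ihh, Smo and Gli1 thus each had a different set of nearest genes.

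Of 35 other genes of the pathway, 30 passed the filter. In WT T1D against WT Control, 27 had a fitted log2 fold change below 0 and 3 above, where 7459 of all 14364 genes were below 0. The median was -0.20 where that of all genes was -0.011. An adjusted p under 0.05 was passed by 3, where 2.33% of all genes did. At an unadjusted p under 0.05 there were 7 of 30, near the 22.2% of all genes. The other two ligands were scarce, Dhh at 1 to 22 counts per mouse and Shh without a count in 22 of 23 mice, which for a mouse with no count allows up to 0.173 CPM. Scube3, a secreted protein that helps release Hedgehog ligands, fell in WT T1D. It was at 2.90, 4.77, 3.73, 4.11 and 4.35 CPM in the WT Control mice A1757, A3767, A3903, A3904 and A3907, and at 1.91, 2.28 and 3.50 CPM (lowest, median and highest) in WT T1D. Only A3909 among the WT T1D mice was within the WT Control range. On the log2 scale the fitted difference was -0.67 (SE 0.173), with an edgeR adjusted p of 0.0460, and -0.71 (SE 0.200, adjusted p = 0.288) without A3905 and A3906. Among the A36 to A39 mice Scube3 was at -0.53 (SE 0.198, edgeR adjusted p = 0.0709).

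Iqce, which tethers the Evc and Evc2 complex that acts with Smo in the cilium, fell as well. It was at 19.9, 20.8, 20.1, 15.4 and 20.8 CPM in the same WT Control mice in that order, and at 8.55, 14.1 and 16.5 CPM in WT T1D. Of these, 6 of 6 were below 4 of the 5 WT Control mice. WT T1D against WT Control gave a log2 fold change of -0.54 (SE 0.123), with an edgeR adjusted p of 0.0393, and -0.37 (SE 0.0933, adjusted p = 0.263) without A3905 and A3906. Btrc, the F-box protein that marks GLI factors for processing and that also acts on beta-catenin and other proteins, rose. Its WT Control values were 60.9, 55.5, 52.3, 44.7 and 47.2 CPM and its WT T1D values were 64.0, 66.7 and 75.1, so that these groups did not overlap. Diabetes in WT gave a log2 fold change of 0.37 (SE 0.0936), with an edgeR adjusted p of 0.0451, and 0.34 (SE 0.103, adjusted p = 0.289) without A3905 and A3906. Among the A36 to A39 mice, where 2205 of 14364 genes passed, Iqce was at -0.67 and Btrc at 0.47 (edgeR adjusted p = 0.0148 and 0.0190). With the erythroid score in the fit, the WT values were 0.11 for Btrc, -0.74 for Scube3 and -0.42 for Iqce (edgeR adjusted p = 0.999 for each). In KO mice the log2 fold changes with diabetes were -0.079 for Scube3, 0.12 for Iqce and -0.063 for Btrc (edgeR adjusted p = 1.00 for each). The interaction terms were 0.59, 0.66 and -0.44, with an adjusted p of 0.479 for each, so a difference between the genotypes was not shown.

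By role, the lowest or highest fitted value with diabetes in WT was that of Boc among receptors and co-receptors, at -0.80 (SE 0.274, edgeR adjusted p = 0.0937) and at -0.43 (SE 0.182, adjusted p = 0.392) without A3905 and A3906. Among the A36 to A39 mice Boc was at -1.29 (edgeR adjusted p = 0.0201), in a fit that keeps A3905 and A3906 and where 2205 of 14364 genes passed. Among proteins of ligand processing and release it was Scube1, at -0.71 (SE 0.391, adjusted p = 0.293), at -0.34 (adjusted p = 0.785) without A3905 and A3906, and at 0.15 (adjusted p = 0.999) with the erythroid score in the fit. In signal transduction and GLI processing the lowest or highest value was that of Gpr161, a cilium receptor that restrains the pathway, at -0.61 (SE 0.278, adjusted p = 0.195). Gpr161 was at -0.43 (adjusted p = 0.635) without A3905 and A3906 and at -0.75 (edgeR adjusted p = 0.147) among the A36 to A39 mice. Gpr161 was at -0.58 in KO mice (SE 0.265, adjusted p = 1.00). In cilium transport the lowest or highest value in WT was that of Ift172 at -0.42 (SE 0.132, adjusted p = 0.0726). Ift172 was at -0.28 (adjusted p = 0.437) without A3905 and A3906 and at -0.61 (adjusted p = 0.0229) among the A36 to A39 mice. Among reported targets that value was Ccnd1, at -0.11 with and without A3905 and A3906 (SE 0.0902 and 0.104, edgeR adjusted p = 0.474 and 0.750). Dhh, the only tested ligand of the list, was at -0.036 (SE 0.581, adjusted p = 0.980) and at 0.25 (SE 0.626, adjusted p = 0.931) without them. Among the A36 to A39 mice Ccnd1 was at -0.055 and Dhh at -0.23 (edgeR adjusted p = 0.767 and 0.856). In the fit of all 23 mice, values with diabetes in WT were below 0 for 4 of 4 tested receptors and co-receptors and 4 of 5 processing genes. They were also below 0 for 11 of 12 transduction genes, 5 of 6 cilium genes and 2 of 2 targets, where 7459 of all 14364 genes were. In the other comparisons none of the 30 passed in edgeR, with unadjusted p under 0.05 for 1 gene in KO T1D against KO Control (3.15% of all genes), 1 in KO Control against WT Control (4.8%), 5 in KO T1D against WT T1D (17.1%) and 4 for the interaction (10.2%). These counts were near the shares of all genes and are no result about the pathway. DESeq2 called 1 in KO T1D against WT T1D. Without A3905 and A3906, 21 of 30 were below 0 with diabetes in WT and the median was -0.092. Of all 14364 genes, 7495 were below 0 in that fit, with a median of -0.0091. None of the 30 passed, with the lowest edgeR adjusted p at 0.263, and 0 of all 14364 genes passed in that fit. An unadjusted p under 0.05 was found for 6 of the 30 and for 1575 of 14364 genes. In KO mice, 19 of 30 were below 0 and the median was -0.043, where 7269 of 14364 genes were below 0 with a median of -0.0016.

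**Figure D5:**
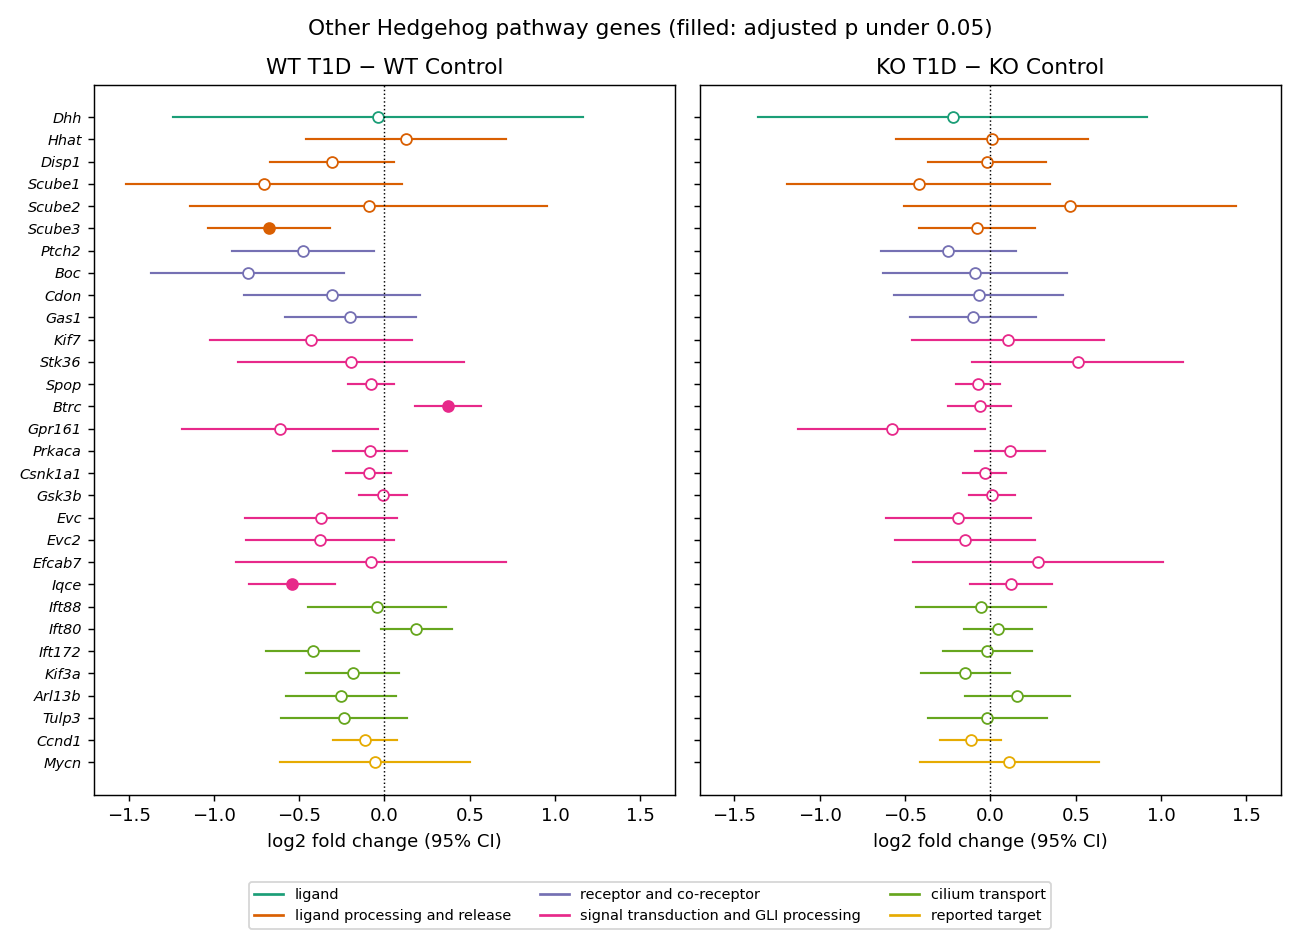
Fitted log2 fold changes with diabetes (x axes, points) and 95% confidence intervals (lines) of 30 other Hedgehog pathway genes (y axis) in WT and KO mice, coloured by role, with filled points for an adjusted p under 0.05. In WT, 27 of 30 points lie below 0 and Scube3, Iqce and Btrc are filled, and in KO none is.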

How the data were processed

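RNA-Seq of marrow-depleted bone from 23 mice was read from the deposited tables of the study. Per the study's methods, SOAPnuke was used to filter paired-end reads, and HISAT and Bowtie2 to align them to the GRCm38.p6 genome. The authors deposited expected counts per gene, already rounded to whole numbers, and TPM values, and the alignment and counting that shaped them were not repeated. The members and gene lists were chosen with earlier results of these data known. Genes reaching 10 counts in 5 or more mice were fitted with edgeR 4.0.16 (R 4.3.3, TMM scaling, quasi-likelihood test) with the 4 group means, and p values were adjusted by Benjamini-Hochberg over 14364 genes at 0.05. The model was tested on simulated data. Total counts were 16938101 to 20135592 per mouse, and chi-square per gene in 55 same-group pairs was 10.9 to 187, so no 2 libraries agreed within sampling noise. Named genes were the 8 members, pathway genes past the threshold or with the largest change in WT T1D in their role, the 3 genes most like each member, the 3 marker genes of highest TPM per list and Sarm1. DESeq2 1.42.0, limma 3.58.1 on log2(TPM + 1), RLE scaling, no filter, the A36 to A39 mice alone, fits without A3905 and A3906, marker scores as covariates and fits without each mouse were tried. Positions came from an annotation of GRCm38.p6. Python 3.11.15 with numpy 2.4.6, pandas 2.3.3 and matplotlib 3.10.9 was used.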

Additional observations from a re-analysis of the deposited data

Results flagged for a closer look

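In 32 sets of values, 8 genes in each of 4 groups, 3 had 1 mouse far from the others, where about 1 in 20 would by chance. Hhip in KO Control was 0.326 CPM in A3672, and the next value was 0.103. Hhip in KO T1D was 0.474 CPM in A3675, and the next value was 0.147. These are values of a gene with at most 9 counts per mouse in KO mice. Gli2 in KO T1D was 9.30 CPM in A3674, and the next value was 6.66. Without that mouse the log2 fold change of Gli2 with diabetes in KO was -0.10 where it had been 0.027.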

How the results depend on the processing

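No member passed the threshold with DESeq2, RLE scaling, no filter, either covariate, without A3905 and A3906, or in 23 fits that each left out 1 mouse. limma on log2(TPM + 1), where the median gene was at -0.24 with diabetes in WT and at 0.17 for KO against WT in T1D mice, called 5 members in WT T1D: Ihh (-0.61), Ptch1 (-0.33), Smo (-0.56), Gli2 (-0.44) and Gli3 (-0.38). That fit called 5154 of 14364 genes in WT T1D, 5071 of them with lower values. The A36 to A39 mice alone, in which A3905 and A3906 are 2 of the 3 WT T1D mice, gave 4 calls in WT T1D, Smo (-0.60), Sufu (-0.39), Gli2 (-0.99) and Gli3 (-1.07), and 2 for KO against WT in T1D mice, Smo (0.55) and Sufu (0.45). That fit called 2205 of 14364 genes in WT T1D and 1538 for KO against WT in T1D mice. Ihh (-1.24), Ptch1 (-0.11) and Gli1 (0.28) were not called in WT T1D. For KO against WT in T1D mice, Ihh (-0.27), Ptch1 (-0.044), Gli1 (-1.18), Gli2 (0.54) and Gli3 (0.73) were not called. The cause of these differences was not tested.

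Of the other pathway genes in WT T1D (3 called), DESeq2 called 5, no filter 1, limma 15, the A36 to A39 mice 6, and the erythroid score, the cartilage score and leaving out A3905 and A3906 each 0; leaving out 1 mouse gave 0 to 5. For KO against WT in T1D mice, where edgeR called 0, DESeq2 called 1, limma 2 and the A36 to A39 mice 2. Of all genes in WT T1D (334 called), DESeq2 called 1002, no filter 88, limma 5154, the A36 to A39 mice 2205, both scores and leaving out A3905 and A3906 0 each, and leaving out 1 mouse 0 to 1264, with 0 without A3767 and 1264 without A3909. For KO against WT in T1D mice (13 called), DESeq2 called 239, RLE scaling 5, no filter 3, limma 1166, the A36 to A39 mice 1538, leaving out A3905 and A3906 4, the erythroid score 6, the cartilage score 3, and leaving out 1 mouse 3 to 95. Diabetes in KO gave 0 to 1 with 1 mouse left out, and the interaction 2 in limma.

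Of 280 fitted values of members under 8 settings, 238 kept direction and side of the threshold, 11 passed it and 31 changed sign, none of which was called. With the cartilage score these were, with diabetes in WT, Ihh (0.0085), Ptch1 (0.064) and Sufu (0.048), with diabetes in KO, Gli3 (0.079), for KO in Control, Gli3 (0.20), Ptch1 (0.037) and Smo (0.12), and for the interaction, Ihh (-0.18) and Ptch1 (-0.095). With the erythroid score they were, in WT, Gli2 (0.11), Gli3 (0.19), Smo (0.11) and Sufu (0.12), in KO, Gli3 (0.14), for KO in Control, Smo (0.046), for KO in T1D, Gli2 (-0.16), Gli3 (-0.061), Ihh (0.047) and Ptch1 (0.012), and for the interaction, Gli2 (-0.0074), Gli3 (-0.048) and Sufu (-0.033). With limma they were, in KO, Gli2 (-0.015) and Gli3 (0.0052), for KO in T1D, Ihh (0.019) and Ptch1 (0.10), and for KO in Control, Sufu (-0.0075). Without A3905 and A3906 they were Sufu in WT (0.12), Gli2 (-0.15) and Sufu (-0.023) for KO in T1D, and Sufu for the interaction (-0.056).

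Leaving out 1 mouse changed the sign of 29 of 805 values, all uncalled. With diabetes in KO the ranges were -0.039 to 0.34 for Gli1, -0.10 to 0.080 for Gli2, -0.11 to 0.18 for Gli3 and -0.10 to 0.0013 for Ptch1, with diabetes in WT -0.12 to 0.069 for Sufu. For KO in Control they were -0.11 to 0.0071 for Ptch1, -0.13 to 0.026 for Smo and -0.0032 to 0.078 for Sufu, and for the interaction -0.52 to 0.064 for Gli1, -0.040 to 0.074 for Ptch1 and -0.0065 to 0.18 for Sufu. No paired analysis was possible because the groups share no mouse numbers.

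Of 10 correlations, 0 passed, 1 passed without the 2 mice farthest from the median (Gli1 with Hhip, r = 0.65) and 5 on log2(TPM + 1), Ihh with Ptch1 (0.53), Hhip (0.53), Gli1 (0.49) and Gli3 (0.48) and Gli1 with Hhip (0.62). The sign of r changed without those mice for Ihh with Gli2 (-0.14), Smo (-0.073) and Sufu (-0.011), and that of Ihh with Smo (-0.016) among A36 to A39 mice. Ihh, Gli1 and Hhip, with the fewest counts among the members, had the widest intervals.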
